A study of Mus musculus with 8 samples.

Results

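Klf2 and 5 receptors of lymphoid homing and egress were followed through sorted lymph node cells at rest and after stimulation of CD40, in WT chimeras and in chimeras labelled as lacking ICAM-1 and ICAM-2. The 6 genes were taken by symbol from the deposited table of 10412 genes, and all 6 were present and passed the filter on low counts. They are Klf2, a zinc finger transcription factor, S1pr1 (sphingosine-1-phosphate receptor 1), Itgb7 (the integrin β7 chain) and the chemokine receptors Ccr7, Cxcr4 and Cxcr5. On activation 5 of the 6 fell in both genotypes, where 5.92% of all tested genes in WT and 6.33% in DKO were called lower. Cxcr5 was not called. The genes were chosen with earlier results of these data known.

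KLF2 keeps lymphocytes quiescent, and in mouse T cells it drives transcription of S1pr1. S1PR1 senses sphingosine-1-phosphate (S1P) and lets lymphocytes leave a lymph node towards the S1P-rich lymph. CCR7 follows CCL19 and CCL21 into the T cell zone and also guides migrating dendritic cells (DCs), CXCR5 follows CXCL13 into B cell follicles, and CXCR4 follows CXCL12. Integrin β7 pairs with α4 to bind MAdCAM-1 on mucosal vessels and with αE to bind E-cadherin.

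RNA came from chimeric C57BL/6 mice aged 16 weeks, 8 weeks after bone marrow transfer, whose labels read WT/WT (called WT) or ICAM-1/2 DKO/WT (called DKO). ICAM-1 and ICAM-2 are ligands of the integrin LFA-1. Activated mice had received 10 µg of a monoclonal antibody to CD40 into the footpad and resting mice no treatment, and the cells of the popliteal nodes were sorted by CD45, CD11c and MHC-II. The 8 libraries form 4 groups of 2, namely WT resting, DKO resting, WT activated and DKO activated. The labels do not say which cells of the DKO chimeras kept ICAMs, nor whether replicates were taken from different mice. The spread behind each p-value is therefore that between libraries and may be technical.

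Bulk MARS-seq tags the 3′ end of each polyadenylated molecule with a unique molecular identifier (UMI), and libraries held 401984 to 1294777 UMIs. Icam1 had 239 and 92 UMIs in WT resting, 4 and 11 in DKO resting, 312 and 353 in WT activated and 30 and 15 in DKO activated libraries, and was lower in every DKO library. Icam2, the other targeted gene, did not separate the genotypes, with 284 and 164 UMIs in WT resting, 97 and 109 in DKO resting, 51 and 77 in WT activated and 86 and 39 in DKO activated libraries (mean DKO minus WT log2 difference 0.06 ± 0.19, edgeR adjusted p = 0.995). Whether the counted 3′ end of Icam2 lies outside the deleted part is not stated in the labels, and if it does its count checks nothing, so the genotype is checked here by Icam1 alone. The labels call the cells DCs, but transcripts that define them were scarce. Itgax, which encodes the CD11c used in the sort, had 11 to 43 UMIs per library, and Zbtb46, a transcription factor of classical DCs, had 0 to 8. B cell transcripts were abundant in every library, at 10915 to 16728 CPM (UMI counts relative to library size) summed over 18 B cell markers. A fall in a bulk library can reflect fewer cells of a type or less RNA per cell, which cannot be told apart here.

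Upstream sequences are shown because KLF factors bind CACCC-like and GC-rich boxes, while MEF2 factors are known to activate Klf2. Of the 6 genes, Klf2, Itgb7 and Cxcr4 matched the RefSeq promoter table (GRCm38.p6). S1pr1, Ccr7 and Cxcr5 had no match and are named only, so the 3 shown were set by availability. Each window starts 250 bases before the RefSeq start and ends before the first annotated transcribed base, at chr8:72318812-72319032 (+ strand) for Klf2, chr15:102231945-102232185 (− strand) for Itgb7 and chr1:128592300-128592549 (− strand) for Cxcr4. Capitals mark matches on either strand to CACCC or CCNCNCCC (KLF type) and to CTA and TAG with 4 bases between them (MEF2 type).
Klf2: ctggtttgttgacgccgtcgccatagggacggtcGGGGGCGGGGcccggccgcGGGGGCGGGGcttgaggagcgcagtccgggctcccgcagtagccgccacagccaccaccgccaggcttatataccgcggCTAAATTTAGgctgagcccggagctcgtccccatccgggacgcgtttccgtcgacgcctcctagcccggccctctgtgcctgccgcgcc
Itgb7: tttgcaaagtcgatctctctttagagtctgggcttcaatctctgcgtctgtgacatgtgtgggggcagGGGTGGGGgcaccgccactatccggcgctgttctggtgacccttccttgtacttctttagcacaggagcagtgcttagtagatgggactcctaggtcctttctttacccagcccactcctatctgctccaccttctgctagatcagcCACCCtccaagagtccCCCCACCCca
Cxcr4: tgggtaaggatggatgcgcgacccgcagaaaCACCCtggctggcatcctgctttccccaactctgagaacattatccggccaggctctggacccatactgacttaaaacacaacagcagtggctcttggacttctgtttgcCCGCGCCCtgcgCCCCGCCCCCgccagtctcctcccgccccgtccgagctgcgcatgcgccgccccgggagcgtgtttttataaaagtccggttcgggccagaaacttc

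The Klf2 window held a MEF2-type match, from 118 to 109 bases before the RefSeq start, a pattern present in 3.2% of 32851 promoter windows of 250 bases. It also held 4 matches to CCNCNCCC in 2 overlapping pairs. The Itgb7 window held matches to CACCC at 182, 35 and 16 bases before the start, of which the first and the last lie inside matches to CCNCNCCC. The Cxcr4 window held a CACCC match and 3 matches to CCNCNCCC, of which the last 2 overlap. Both KLF-type patterns are common, with CACCC in 52.0% and CCNCNCCC in 45.9% of all windows. These shares count all 250 bases, which in Klf2 and Itgb7 run past the printed letters. There CACCC also matched, from 19 to 15 bases before the start in Klf2 and from 9 to 5 in Itgb7. The FOXO-type GTAAACA, present in 3.17% of windows, was not among these letters. The loose NF-kB-type pattern of GGG and CC with 5 bases between them, present in 45.8% and not capitalised, matched in Klf2, where it overlapped KLF-type and MEF2-type matches, and in Itgb7. A match describes the sequence and does not show a bound site.

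Levels are given in CPM, the UMI count relative to the library's total after edgeR's TMM scaling, and changes as log2 with their standard error (SE). A gene was called when its adjusted p (edgeR quasi-likelihood test, Benjamini-Hochberg over 8616 tested genes) was under 0.05. As the mean of both genotypes, 5 of the 6 genes were called lower in activated libraries, against 13.4% of all tested genes called lower and 16.3% called higher. In the same 5 genes every activated library lay below every resting one, which held for 13.0% of tested genes. The 6 genes were chosen with earlier results of these data known, so their share is a description.

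Klf2 (chr8:72319033-72321656, + strand) had the largest change of the 6. Resting libraries held 507 and 378 CPM in WT and 385 and 501 CPM in DKO, and activated libraries 85.2 and 56.9 CPM in WT and 90.3 and 56.7 CPM in DKO. The genotypes overlapped in each state. Group means were 442 ± 91.2 and 443 ± 82.0 CPM at rest and 71.1 ± 20.01 and 73.5 ± 23.8 CPM after activation in WT and DKO (SD, n = 2), so only the states differed beyond their spread. Klf2 fell by 2.60 ± 0.18 on the log2 scale as the mean of both genotypes, a 6.04-fold difference (adjusted p = 2.36e-12). It ranked 26th by size among 1153 genes called lower.

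S1pr1 (chr3:115710433-115715072, − strand), the egress receptor downstream of KLF2 in T cells, had the third largest change of the 6, after Klf2 and Cxcr4. WT libraries held 193 and 172 CPM at rest and 41.3 and 37.5 CPM after activation, and DKO libraries 150.3 and 191 CPM at rest and 44.5 and 54.4 CPM after activation. Resting and activated libraries were far apart, while genotypes overlapped at rest and both DKO activated libraries lay just above the WT activated ones. S1pr1 fell by 2.02 ± 0.19 (4.06-fold, adjusted p = 1.28e-09).

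Cxcr4 (chr1:128588199-128592293, − strand), the receptor for CXCL12, fell by 2.20 ± 0.22 (4.60-fold, adjusted p = 4.70e-09). WT libraries held 125 and 146 CPM at rest and 28.4 and 44.8 CPM after activation, and DKO libraries 179 and 162 CPM at rest and 20.4 and 42.5 CPM after activation. At rest both DKO libraries lay above both WT ones, and after activation the genotypes overlapped. The activated values rest on few molecules. The lowest was 16 UMIs in a DKO activated library, with an exact 95% Poisson interval of 9.15 to 26.0 UMIs that covers counting error only.

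Ccr7 (chr11:99144196-99155077, − strand), which is best known for rising in maturing DCs, moved in the other direction here. At rest it was at 292 and 262 CPM in WT and 277 and 245 CPM in DKO, and after activation at 101 and 140.5 CPM in WT and 113 and 147 CPM in DKO. The genotypes overlapped in both states, and no activated library reached the lowest resting one. Ccr7 fell by 1.11 ± 0.16 (2.16-fold, adjusted p = 3.91e-06).

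Itgb7 (chr15:102215995-102231944, − strand) fell by 0.95 ± 0.15 (1.93-fold, adjusted p = 9.91e-06). At rest it was at 477 and 484 CPM in WT and 566 and 420.4 CPM in DKO, and after activation at 209 and 289 CPM in WT and 243 and 262 CPM in DKO. All activated libraries lay below the lowest resting one.

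Cxcr5 (chr9:44511787-44561877, − strand), the follicular homing receptor, stood apart from the others. At rest it was at 324 and 315 CPM in WT and 420.5 and 428 CPM in DKO, and after activation at 445 and 451 CPM in WT and 405 and 433 CPM in DKO. Both WT resting libraries were the lowest, and the other 6 lay close together. The mean change of Cxcr5 was 0.23 ± 0.13 (95% interval −0.04 to 0.50, adjusted p = 0.197). The last exon of Cxcr5 shares 110 bases at its 3′ end, chr9:44511787-44511896, with Bcl9l on the opposite strand. No source used here gives the strand setting of the counting, so molecules counted there are uncertain. Bcl9l itself was at 55.2 to 85.6 CPM in resting and 33.1 to 76.4 CPM in activated libraries.

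**Figure D1:**
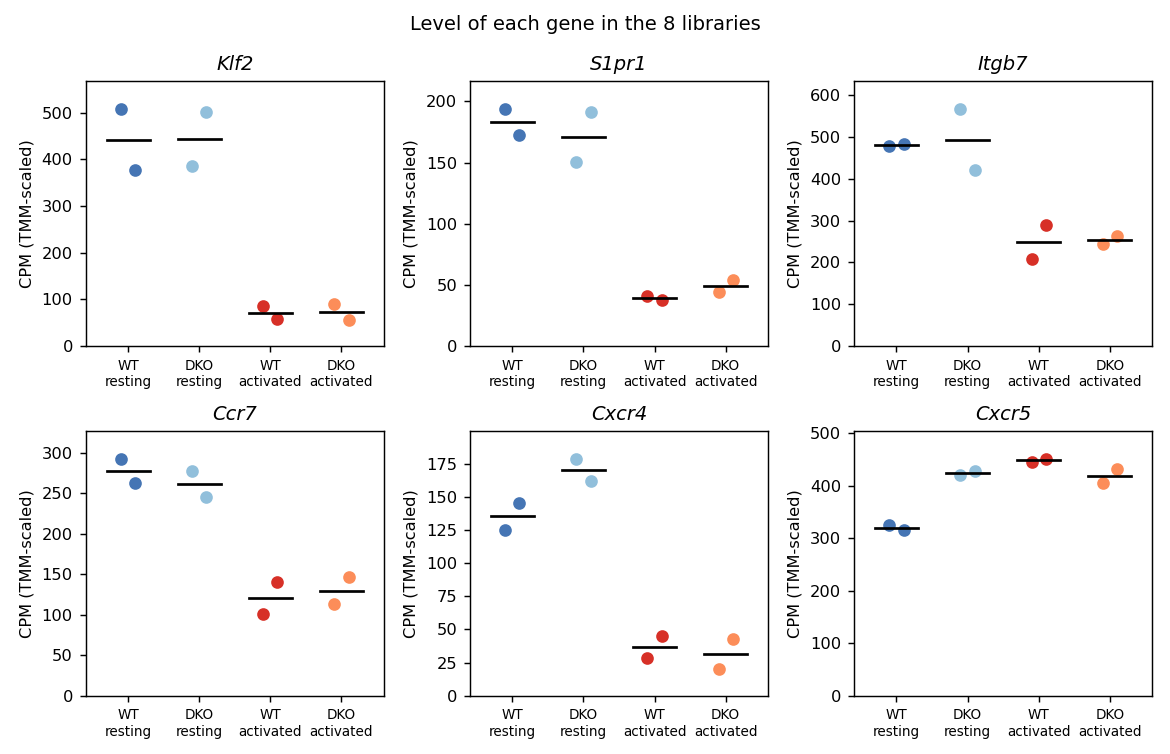
CPM (TMM-scaled, axes from 0) of the 6 genes in each library, one point per library and a line at the mean of the 2 libraries of a group. Klf2, S1pr1, Itgb7, Ccr7 and Cxcr4 are lower in each activated library than in any resting one, and Cxcr5 is lowest in WT resting libraries.

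The fall was seen in each genotype taken alone. In WT, where 5.92% of tested genes were called lower, 5 of the 6 genes were called lower. The log2 changes were −2.65 ± 0.25 for Klf2, −2.22 ± 0.26 for S1pr1, −1.87 ± 0.30 for Cxcr4, −1.20 ± 0.22 for Ccr7 and −0.94 ± 0.21 for Itgb7, with edgeR adjusted p from 1.24e-08 to 0.00172. The Itgb7 call in WT ended without WT activated replicate 1 (−0.73, adjusted p = 0.0957).

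In DKO, where 6.33% were called lower, the same 5 genes were called lower. Klf2 stood at −2.55 ± 0.26, Cxcr4 at −2.54 ± 0.33, S1pr1 at −1.83 ± 0.28, Ccr7 at −1.02 ± 0.24 and Itgb7 at −0.96 ± 0.21, with adjusted p from 3.24e-08 to 0.00288. The Ccr7 call in DKO ended without DKO activated replicate 1 (−0.82, adjusted p = 0.0621), and the Itgb7 call without both libraries of lowest depth (−0.81, adjusted p = 0.0612). The authors' deposited table gives the same signs for these 5 genes, from −2.41 for Klf2 to −0.89 for Itgb7 in WT and from −2.35 for Klf2 to −0.92 for Itgb7 in DKO.

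Cxcr5 was not called in either genotype. Its change was 0.48 ± 0.19 in WT (95% interval 0.11 to 0.86, adjusted p = 0.0771) and −0.02 ± 0.19 in DKO (−0.41 to 0.37, adjusted p = 0.956). The WT value passed the threshold with limma-voom (adjusted p = 0.0274), in a fit of only the 4 WT libraries (0.0346) and without both libraries of lowest depth (0.0382), and the adjusted p ran from 0.0274 to 0.272 over 15 alternatives. The authors' deposited table gives 0.47 with an adjusted p of 0.0686 in WT.

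Between chimeras labelled DKO and WT, 0 of the 6 genes were called different. The mean DKO minus WT difference was 0.06 ± 0.18 for Klf2 (95% interval −0.31 to 0.43), 0.11 ± 0.19 for S1pr1 (−0.29 to 0.50) and 0.02 ± 0.15 for Itgb7 (−0.28 to 0.32). It was −0.01 ± 0.16 for Ccr7 (−0.34 to 0.32), −0.00 ± 0.20 for Cxcr4 (−0.41 to 0.40) and 0.15 ± 0.13 for Cxcr5 (−0.12 to 0.42). The edgeR adjusted p was 0.995 or above for each. The intervals leave room for differences of up to 0.50 on the log2 scale. Across all tested genes 0.209% were called in this contrast, 0.162% at rest and 0.174% after activation, so few genes of any kind were called. In this contrast 488 genes had an unadjusted edgeR p under 0.05. With 2 libraries per group an uncalled gene may still differ.

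Within one state the intervals were wider. At rest the largest of the 6 differences was that of Cxcr5, 0.41 ± 0.19 higher in DKO (95% interval 0.02 to 0.79, unadjusted p = 0.0389, adjusted p = 0.920), with both DKO resting libraries above both WT resting ones. Cxcr4 stood at 0.33 ± 0.26 (−0.20 to 0.86), also with no overlap between genotypes, and the other 4 genes lay between −0.10 and 0.03. With 2 libraries per group such separation of genotypes arises easily in either state. Its share over all tested genes was not counted, so it is a description only. After activation the differences ran from −0.34 ± 0.38 for Cxcr4 (−1.11 to 0.44) to 0.30 ± 0.32 for S1pr1 (−0.34 to 0.94). In the authors' deposited table, which gives WT over DKO, Cxcr5 stood at −0.42 at rest and at 0.10 after activation, with an adjusted p of 1.0 in both.

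The response to activation was compared between genotypes by the interaction (change in DKO minus change in WT). It was 0.10 ± 0.36 for Klf2, 0.39 ± 0.39 for S1pr1, −0.01 ± 0.30 for Itgb7, 0.18 ± 0.33 for Ccr7, −0.67 ± 0.46 for Cxcr4 and −0.51 ± 0.27 for Cxcr5 (95% interval −1.05 to 0.04), with an edgeR adjusted p of 0.997 for each. For Cxcr4 the interval ran from −1.61 to 0.27, and the value itself from −1.18 without DKO activated replicate 2 to −0.12 without DKO activated replicate 1. Among all tested genes edgeR called 0 interactions (0.0%), as did DESeq2 and limma-voom, and 397 genes had an unadjusted p under 0.05.

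**Figure D2:**
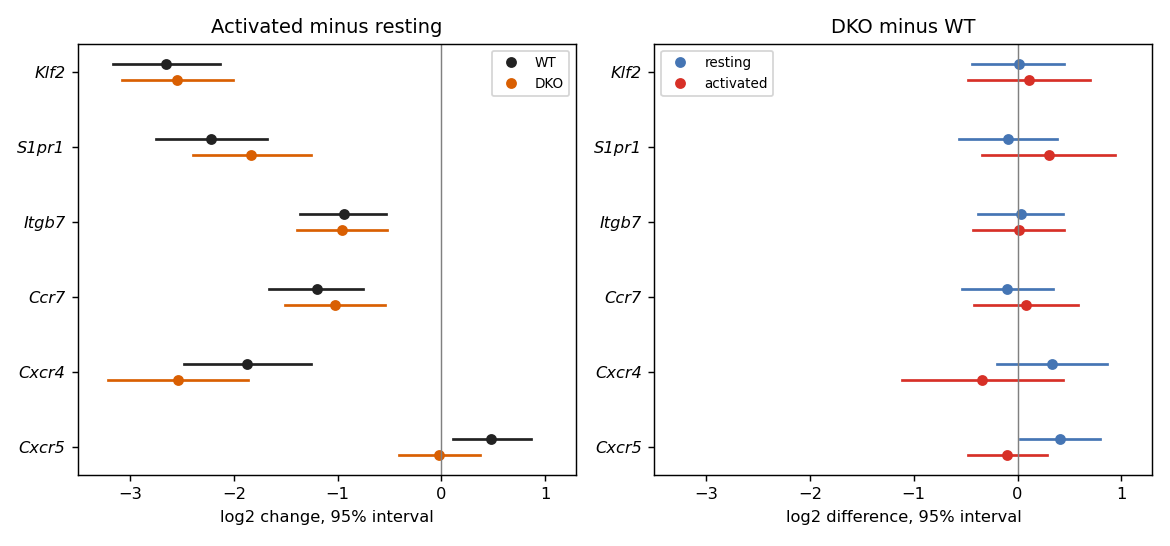
Left, log2 change from resting to activated libraries in WT and in DKO, and right, log2 difference between DKO and WT at rest and after activation, each with its 95% interval from the edgeR fit. On the left the intervals of Klf2, S1pr1, Itgb7, Ccr7 and Cxcr4 lie below 0 in both genotypes, and on the right the points lie between −0.34 and 0.41.

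The unequal response of Cxcr5 was measured as a UMI ratio within each library, which needs no scaling between libraries. The ratios were chosen after the levels were seen. For each Ccr7 UMI there were 1.11 and 1.20 Cxcr5 UMIs in WT resting, 1.52 and 1.75 in DKO resting, 4.42 and 3.21 in WT activated and 3.57 and 2.95 in DKO activated libraries. The log2 ratio of Cxcr5 to Ccr7 was thus 1.35 higher in activated libraries. It was 2.87 higher against Klf2, 2.46 against Cxcr4, 2.23 against S1pr1 and 1.19 against Itgb7. In all 5 ratios the 4 activated libraries lay above the 4 resting ones. The ratios restate the levels given above and are a description, with no test.

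**Figure D3:**
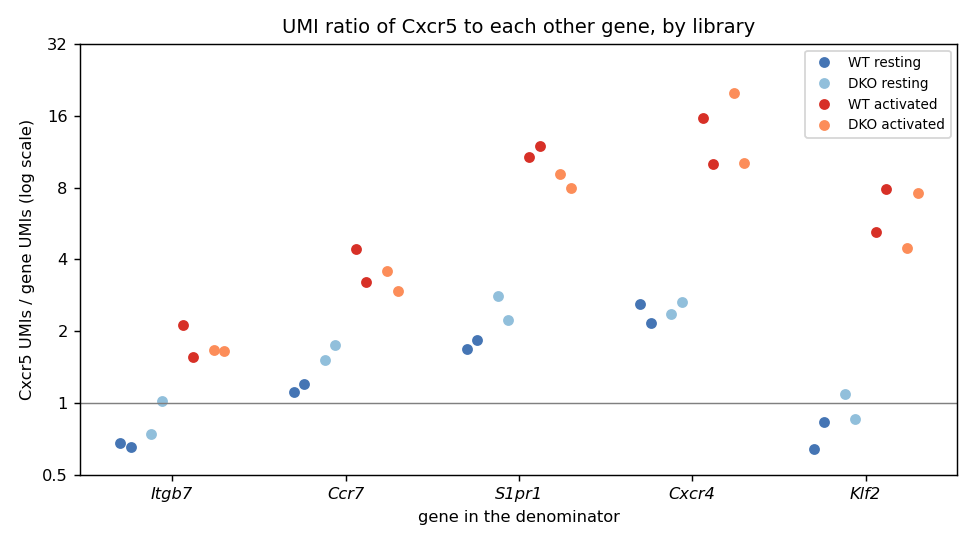
Ratio of Cxcr5 UMIs to UMIs of each other gene (log axis), one point per library and colours for the 4 groups. Activated libraries lie above resting ones for every denominator, for example 2.95 to 4.42 against 1.11 to 1.75 for Ccr7.

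Across the 8 libraries the 5 genes that fell moved closely together. Pearson r of log2 CPM ran from 0.88 (Klf2 with Itgb7) to 0.98 (Itgb7 with Ccr7), and from −0.64 to −0.47 between Cxcr5 and the others. These coefficients describe points that fall into a resting and an activated cluster and share library depth, so any gene that separates the states scores high. Likeness was sought among 5468 genes whose log2 CPM averaged at least 5. The pattern most like Klf2 was that of Snn (r = 0.994) and Ccm2 (0.993). For S1pr1 they were Atf7ip (0.991) and Neat1 (0.989), for Itgb7 Hmha1 (0.993) and Cd2 (0.989), for Ccr7 Cd2 (0.989) and Ier2 (0.987) and for Cxcr4 Edc4 (0.989) and Emp3 (0.987). The closest to Cxcr5 were Psmb5 (0.945) and Polr1d (0.929).

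Genes around KLF2 were read from 8 lists of related genes, some of which share members, with all changes as the mean of both genotypes. In that contrast 13.4% of all tested genes were called lower and 16.3% higher. In the genotype mean and in the interaction, 0 genes of these lists were called, beside 0.209% and 0.0% of all tested genes. Of 7 tested KLF family members other than Klf2, 3 fell, 0 rose and 4 were not called (median log2 change −0.61, against −0.01 over all tested genes). Klf13 fell by 0.92 ± 0.15 (adjusted p = 1.35e-05). Klf6 stood at −0.61 ± 0.19 and Klf3 at −0.61 ± 0.23, and both lost their call when single libraries were left out, for example at −0.43 and −0.40 without WT resting replicate 1.

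Of 17 genes upstream of Klf2 or acting with it, 7 fell, 0 rose and 10 were not called (median −0.60). The shares over all tested genes were 13.4% lower and 16.3% higher. Foxo1, a transcription factor that sustains Klf2 and Ccr7 in mouse T cells, fell by 1.0 ± 0.16, from 201 to 287 CPM in resting to 102 to 137 CPM in activated libraries. Its relative Foxo4 fell by 1.75 ± 0.35, and Foxp1, a forkhead factor of naive lymphocytes, fell by 1.03 ± 0.14. The MEF2 gene Mef2c fell by 0.66 ± 0.16. Its relatives Mef2a, at −0.49 ± 0.32 (edgeR adjusted p = 0.262), and Mef2d, at −1.11 ± 0.62 (0.18), were not called in this mean. Mef2a was called lower in WT alone. Any part of MEF2 genes in the fall of Klf2 was not tested. Mapk7, which encodes the ERK5 kinase that acts through MEF2, stood at −0.17 ± 0.33 (adjusted p = 0.740). The MEF2 genes and Mapk7 were named after their values were seen.

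Of 16 other genes reported to depend on KLF2 or FOXO1, 6 fell and 5 rose (median −0.61), so this list moved in both directions. Beside these counts, 13.4% of all tested genes were called lower and 16.3% higher. S1pr4, a second S1P receptor, fell by 1.80 ± 0.17 (adjusted p = 1.54e-09), from 224 to 352 CPM in resting to 61.5 to 93.0 CPM in activated libraries. Btg1, an antiproliferative gene, fell by 1.22 ± 0.17. Fcer2a, which encodes the low-affinity IgE receptor CD23 of B cells, rose by 0.94 ± 0.12.

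Among 9 tested genes of S1P receptors, synthesis and signalling, 5 fell and 2 rose (median −0.49), beside 13.4% and 16.3% of all tested genes. Besides S1pr4, which stands in both lists, Arhgef1, an exchange factor coupled to G12 and G13 proteins, fell by 0.85 ± 0.15. The risers were Gpr183 (EBI2), an oxysterol receptor that positions B cells and DCs, at 0.88 ± 0.14 and Cd69, whose product pulls S1PR1 from the cell surface, at 0.63 ± 0.21 (adjusted p = 0.0265). Cd69 went from 32.9 to 100 CPM in resting to 77.6 to 134 CPM in activated libraries, so single libraries overlapped, and it was named after its value was seen.

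The integrin partners of β7 fell in the mean of both genotypes, Itga4, the α4 chain, by 0.67 ± 0.17 (adjusted p = 0.00355) and Itgae, the αE chain, by 0.83 ± 0.23 (adjusted p = 0.00607). Both were called in WT, at −0.72 ± 0.23 and −0.88 ± 0.30, and neither in DKO, at −0.63 ± 0.26 (adjusted p = 0.0947) and −0.79 ± 0.35 (adjusted p = 0.125). The interaction was not called for either, with an edgeR adjusted p of 0.997. In all, 4 of 15 tested integrin and integrin activation genes fell and 1 rose (median −0.19), beside 13.4% and 16.3% of all tested genes. The largest fall was in Rasgrp2, an exchange factor that activates Rap1, at −2.29 ± 0.19. Itgal, Itgb2 and Itgb1, chains of LFA-1 and of β1 integrins, were named after their values were seen, lay between −0.20 and 0.02 and were not called.

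Of 10 other chemokine receptors tested, 6 rose and 1 fell as the mean of both genotypes (median 1.11), beside 16.3% and 13.4% of all tested genes. Within WT 1 was called higher, Ccr6 (median 0.44, against 8.44% of all tested genes called higher), and within DKO 5 were (median 1.43, against 9.04%), while 0 interactions were called. Ccr6, the CCL20 receptor, rose by 0.78 ± 0.15, from 157 to 232 CPM in resting to 274 to 367 CPM in activated libraries. The atypical receptor Ccrl2 rose by 2.36 ± 0.52 from at most 6.96 CPM in resting libraries. Cxcr2, a receptor of neutrophils, stood at 1.61 ± 0.46 but at 0.57 (adjusted p = 0.573) without WT activated replicate 1. The count of called genes in this list was 2 without both libraries of lowest depth and also 2 without WT resting replicate 1.

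Of 20 tested signalling genes of chemokine receptors, 6 fell, 1 rose and 13 were not called (median −0.29). Over all tested genes the shares were 13.4% lower and 16.3% higher. The Rac exchange factor Dock2 fell by 0.89 ± 0.18 and the receptor kinase Grk6 by 0.78 ± 0.15, while Rac2 rose by 0.88 ± 0.11. Of 3 tested ligands of the 6 genes' products, Mif, a cytokine that also binds CXCR4, rose by 1.74 ± 0.17 and Vcam1, a ligand of α4 integrins, by 2.11 ± 0.35. Vcam1 also stands in the list of monocyte and macrophage markers below, and averaged 30.8 CPM in WT activated and 68.0 CPM in DKO activated libraries. Cxcl13, the remaining ligand, named after its value was seen, was not called at 1.26 ± 0.52 (adjusted p = 0.0668).

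**Figure D4:**
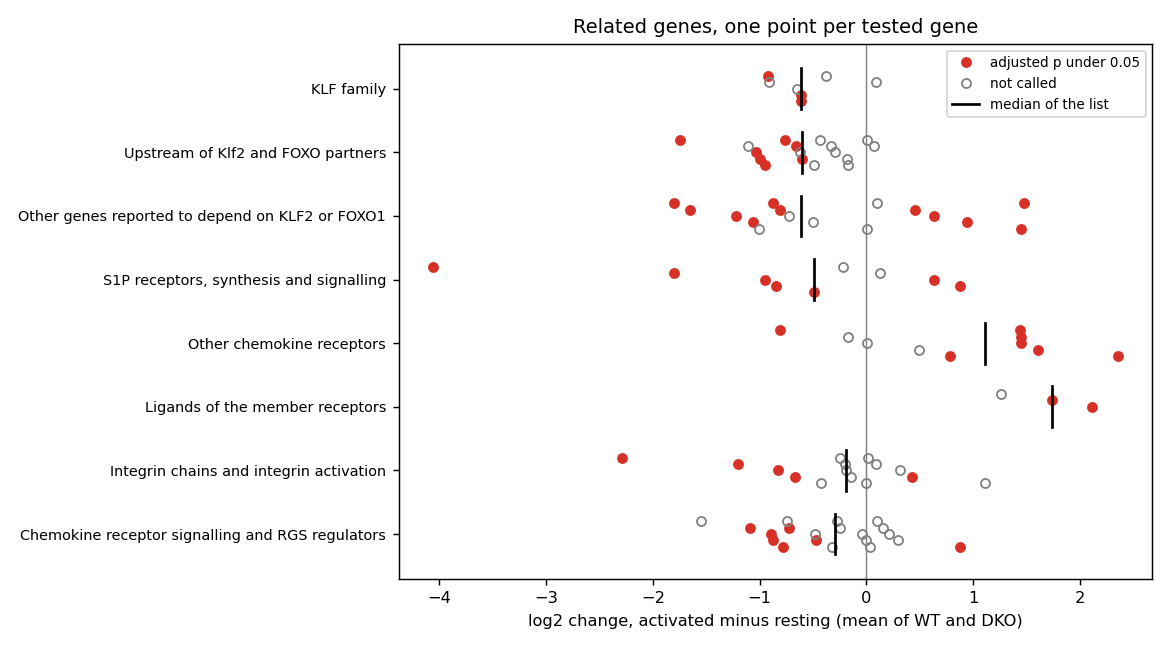
Log2 change on activation (mean of WT and DKO, horizontal axis) of each tested gene in 8 lists of related genes, with filled points for called genes and a bar at the list's median. Medians run from −0.61 for KLF family members and for other genes reported to depend on KLF2 or FOXO1 to 1.74 for the 3 ligands.

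Markers of several cell types moved between the states, and their part in the changes above was not tested. Their counts stand beside 13.4% of all tested genes called lower and 16.3% called higher. B cells express all 6 genes, and Klf2, S1pr1 and Ccr7 were named above for mouse T cells. The summed level of 18 B cell markers was 13561 to 16728 CPM in resting and 10915 to 13171 CPM in activated libraries, 1.21-fold lower in the mean, with 9 of 17 tested markers called lower and 4 higher. T cell markers went from 1856 to 3589 CPM to 1494 to 2433 CPM, 1.40-fold lower in the mean, with 9 of 17 called lower and 1 higher.

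Monocyte and macrophage markers rose, and the counts here stand beside the same 13.4% lower and 16.3% higher of all tested genes. The 17 monocyte and macrophage markers summed to 2424 to 3193 CPM in resting, 5587 to 6426 CPM in WT activated and 12542 to 16302 CPM in DKO activated libraries, with 15 of 15 tested called higher. Migratory DC markers went from 990 to 1423 CPM to 2142 to 3007 CPM (6 of 12 called higher, 1 lower), while Ccr7 fell. Classical DC markers summed to 40657 to 48483 CPM in resting and 40237 to 42539 CPM in activated libraries (3 of 13 called higher, 1 lower), a sum carried by MHC class II genes that B cells share, such as H2-Aa at 10001 to 13902 CPM. Plasmacytoid DC markers went from 1371 to 1884 CPM to 2740 to 3782 CPM (4 of 8 called higher, 1 lower), and NK cell markers from 284 to 349 CPM to 279 to 702 CPM (3 of 9 called higher). Immediate early genes, which respond to cell handling, went from 2006 to 3519 CPM in resting to 1156 to 1401 CPM in activated libraries. Of 17 tested, 13 were called lower and 1 higher. This list also holds Klf6, Ier2, named above as like Ccr7, and Btg2, which fell among genes reported to depend on KLF2 or FOXO1. No marker gene in the table was at 0 in all libraries.

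**Figure D5:**
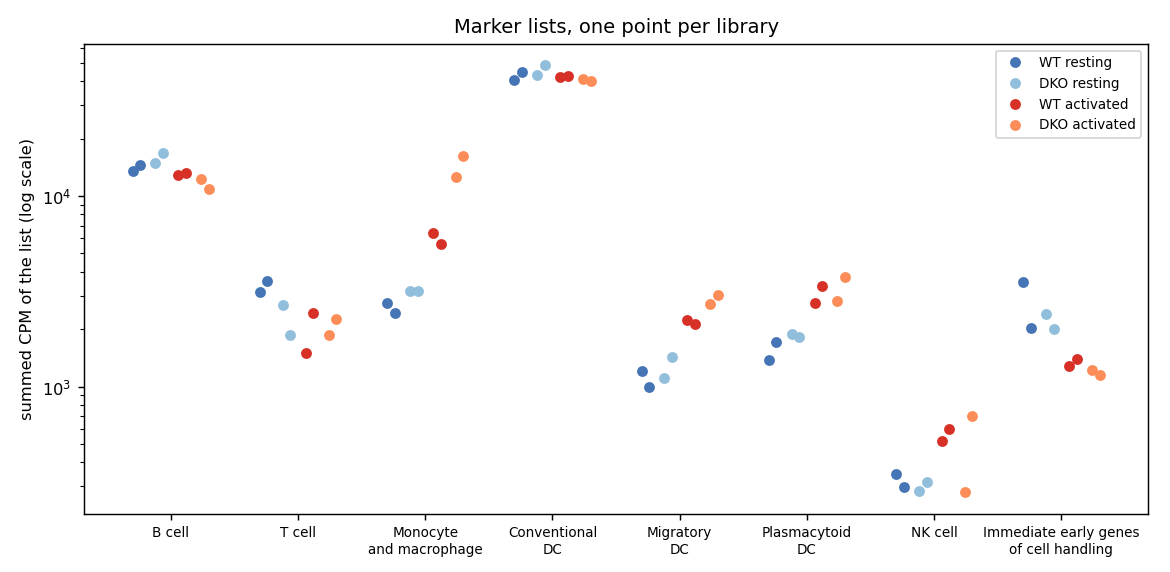
Summed CPM (log axis) of 8 marker lists, one point per library and colours for the 4 groups. Activated libraries hold more monocyte and macrophage and migratory DC marker RNA, up to 16302 and 3007 CPM, and less B cell marker and immediate early RNA.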

How the data were processed

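UMI counts of 8 libraries were analysed. The submitters' processing notes name TopHat2, HTSeq, DESeq2, cutadapt 1.8.3 and bcl2fastq 2.17.1.14, and the build mm10. No source used here gives the annotation, strand setting or UMI collapsing. The deposited raw UMI counts, per the file headers, entered every test. The authors' log2 fold changes and adjusted p-values, named in the file headers, are quoted only as theirs. A further 16 per-sample columns were not used. Every gene listed had 6 or more UMIs in some library.

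Genes were filtered with filterByExpr (8616 of 10412 kept), then scaled with TMM. The quasi-likelihood model of edgeR 4.0.16, run in R 4.3.3, had one term for each group over 8 libraries, leaving 4 residual degrees of freedom. The SE is the change divided by the square root of F. The steps were tested on simulated data. Replicate pairs differed by 2.46 to 3.06 times counting noise (chi-square per degree of freedom). Alternatives used DESeq2 1.42.0, limma 3.58.1 (voom with quality weights), other scaling, filters and subsets of libraries. The genes and lists were chosen with earlier results of these data known. Related genes named are, per list, up to 3 called genes with the smallest p in the activation mean, plus genes said to be chosen after their values were seen. Likeness used log2 CPM with a prior count of 2. Gene positions are from GENCODE M21 (GRCm38, which is mm10), matched by symbol. Results on some single genes are not reported here.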

Additional observations from a re-analysis of the deposited data

How the results depend on the processing

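The mean fall of Klf2, S1pr1, Itgb7, Ccr7 and Cxcr4 kept its call in all 14 alternatives. No paired analysis was possible because the labels give no replicate numbers that groups share. The genotype differences and interactions of the 6 genes were uncalled in every alternative, and those near 0 changed sign. Where a value below departs from the main one, the cause was not tested.

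Leaving out single libraries gave −1.20 to −0.73 for Itgb7 in WT, −1.20 to −0.82 for Ccr7 in DKO and −0.07 to 0.03 for Cxcr5 in DKO. The genotype mean ran from −0.16 to 0.21 for Klf2, −0.09 to 0.15 for Itgb7, −0.12 to 0.12 for Ccr7 and −0.26 to 0.27 for Cxcr4. At rest it ran from −0.21 to 0.25 for Klf2, −0.29 to 0.07 for S1pr1 and −0.18 to 0.24 for Itgb7. After activation it ran from −0.32 to 0.42 for Klf2, −0.20 to 0.27 for Itgb7, −0.13 to 0.35 for Ccr7 and −0.85 to 0.21 for Cxcr4. The interaction ran from −0.33 to 0.41 for Klf2, 0.23 to 0.59 for S1pr1, −0.23 to 0.24 for Itgb7, −0.04 to 0.44 for Ccr7, −1.18 to −0.12 for Cxcr4 and −0.55 to −0.46 for Cxcr5. Counts of called genes ran from 502 to 1389 in WT (main 1237), 694 to 1196 in DKO (1324), 7 to 14 for the genotype mean (18), 3 to 13 at rest (14), 6 to 36 after activation (15) and 0 to 2 for the interaction (0). In the lists they ran from 1 to 3 for the KLF family (3), 2 to 5 for other chemokine receptors (7) and 3 to 5 for integrins (5).

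Without both libraries of lowest depth, an alternative added after seeing the data, Cxcr5 in WT was 0.47 and Itgb7 in DKO −0.81. Itgb7 stood at −0.10 in the genotype mean, −0.18 at rest, −0.03 after activation and 0.15 in the interaction, S1pr1 at 0.07 at rest and Ccr7 at −0.08 after activation. Called genes were 557 in DKO, 11 for the genotype mean, 6 at rest, 8 after activation, 2 for the interaction, 2 for other chemokine receptors and 3 for integrins. DESeq2 gave 0.01 for Ccr7 and 0.02 for Cxcr4 in the genotype mean, and its size factors in edgeR gave 0.01 for both. DESeq2 called 811 genes in WT, 853 in DKO and 4 at rest, and in the lists 7 genes reported to depend on KLF2 or FOXO1 (main 11), 4 other chemokine receptors and 3 integrin genes. With limma-voom Cxcr5 in WT was 0.48, Itgb7 was −0.00 at rest and 0.03 in the interaction, and called genes were 1871 in WT, 8 at rest, 23 after activation and 4 among other chemokine receptors. Only the 4 libraries compared gave 0.48 for Cxcr5 in WT and 9 genes at rest. With activated levels of Cxcr4 at 16 to 37 UMIs, differences between activated groups are poorly resolved.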
